A study of Mus musculus with 114 samples.

Results

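The proteasome genes were taken as every gene whose symbol begins with Psma, Psmb, Psmc, Psmd, Psme, Psmf or Psmg followed by a digit, which gave 53 of the 29132 genes measured. Of these, 47 passed the filter on low values (mean log2(CPM + 1) above 2.0 over all mice) and were tested among 10343 genes. CPM is the number of reads of a gene scaled to 1000000 reads on all genes of that mouse. The genes were measured by RNA-seq in the floating (adipocyte) fraction of collagenase-treated perigonadal white fat from 38 male C57BL/6J mice. At the age of 6 weeks the mice were put on chow (CD) or on high fat diet (HFD), and the fat was taken after 8, 20 or 34 weeks, so that each time on diet is also an age and a separate set of mice. There were 6 mice in every group except CD at 34 weeks, which had 8, and the 3 technical replicates of each mouse had been merged.

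The proteasome degrades proteins that carry ubiquitin. Its core is a barrel of outer alpha rings (Psma genes) and inner beta rings (Psmb genes), in which only Psmb5, Psmb6 and Psmb7 encode catalytic subunits, and a regulatory cap of ATPases (Psmc) and non-ATPases (Psmd) recognizes, unfolds and admits the substrate. In immune cells, and in other cells exposed to interferon gamma, newly built cores take up Psmb8, Psmb9 and Psmb10 in place of Psmb5, Psmb6 and Psmb7. This immunoproteasome, together with the activator PA28 made from Psme1 and Psme2, favours peptides that major histocompatibility complex (MHC) class I molecules present. Because such genes are abundant in macrophages, which accumulate around adipocytes in obese fat, levels of macrophage markers are given beside the results.

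The core and cap genes that make up the 26S proteasome (31 genes: Psma1 to Psma7, Psmb1 to Psmb7, 6 Psmc and 11 Psmd genes) were all tested. The other tested genes were the 3 inducible catalytic subunits, Psme1 and Psme2, 7 assembly chaperones (Psmd5, Psmd9, Psmd10 and Psmg1 to Psmg4), the activators Psme3 and Psme4, the inhibitor Psmf1, and Psme2b, a copy of Psme2. The 6 genes below the filter were the testis alpha subunit Psma8, the thymus beta subunit Psmb11, the pseudogenes Psmb5-ps, Psmb6-ps and Psmb7-ps2, and Psmc3ip, a recombination factor that shares only the start of the symbol. Psma8 was at 0.169 to 1.71 CPM (median 0.485) in CD mice at 34 weeks and at 0.747 to 2.61 CPM (median 1.86) in HFD mice, and Psmb11 had 2 reads in all mice together. Reads shared between Psme2 and Psme2b could not be separated with certainty, since 68.7% of the 50-base words of the longest Psme2b transcript also occur in Psme2 transcripts.

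The start regions of the inducible subunits, of the constitutive subunits Psmb5 and Psmb6 and of Psme1 are shown first, because the comparisons below turn on these genes and their counterparts. Psmb7, the counterpart of Psmb10, had no listed start region. Each sequence spans 250 bases before to 50 bases after the annotated start (RefSeq, GRCm38.p6), reads 5′ to 3′ on the strand of the gene, and carries in capitals any match to 1 of 4 motifs searched on both strands, so that a match on the other strand appears as its reverse complement. The motifs were GAAANNGAA (like an interferon-stimulated response element), TTCNNNGAA (the gamma interferon activation site, GAS), TGACNNNGC (the core of the antioxidant response element, which the proteasome gene regulator Nfe2l1 also binds) and CCAAT. The order is Psmb8 (chr17:34197945-34198244, plus strand), Psmb9 (chr17:34187281-34187580, minus strand), Psmb10 (chr8:105938343-105938642, minus strand), Psmb5 (chr14:54617946-54618245, minus strand), Psmb6 (chr11:70525107-70525406, plus strand) and Psme1 (chr14:55578244-55578543, plus strand).
Psmb8: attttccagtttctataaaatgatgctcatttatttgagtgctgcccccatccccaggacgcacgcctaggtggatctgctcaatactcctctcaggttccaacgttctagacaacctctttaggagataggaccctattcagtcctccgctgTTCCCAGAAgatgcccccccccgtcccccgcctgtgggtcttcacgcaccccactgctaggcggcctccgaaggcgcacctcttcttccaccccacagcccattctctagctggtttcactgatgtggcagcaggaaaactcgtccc
Psmb9: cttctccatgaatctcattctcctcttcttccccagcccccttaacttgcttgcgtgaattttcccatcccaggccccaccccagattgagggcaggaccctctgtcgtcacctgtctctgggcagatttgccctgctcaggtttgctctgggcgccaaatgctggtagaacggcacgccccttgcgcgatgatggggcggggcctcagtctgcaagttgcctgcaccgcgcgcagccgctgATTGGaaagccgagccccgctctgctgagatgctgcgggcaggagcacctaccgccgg
Psmb10: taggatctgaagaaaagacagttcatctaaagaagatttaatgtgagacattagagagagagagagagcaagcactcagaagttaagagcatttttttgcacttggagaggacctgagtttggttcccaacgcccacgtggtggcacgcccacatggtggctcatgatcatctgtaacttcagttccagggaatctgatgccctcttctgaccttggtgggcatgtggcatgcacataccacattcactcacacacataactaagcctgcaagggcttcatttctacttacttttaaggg
Psmb5: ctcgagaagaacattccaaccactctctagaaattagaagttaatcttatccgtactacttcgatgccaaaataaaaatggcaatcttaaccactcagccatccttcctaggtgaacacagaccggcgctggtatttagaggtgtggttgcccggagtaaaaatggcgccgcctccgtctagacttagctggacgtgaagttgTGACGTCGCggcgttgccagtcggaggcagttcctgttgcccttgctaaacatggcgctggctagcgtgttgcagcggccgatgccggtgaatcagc
Psmb6: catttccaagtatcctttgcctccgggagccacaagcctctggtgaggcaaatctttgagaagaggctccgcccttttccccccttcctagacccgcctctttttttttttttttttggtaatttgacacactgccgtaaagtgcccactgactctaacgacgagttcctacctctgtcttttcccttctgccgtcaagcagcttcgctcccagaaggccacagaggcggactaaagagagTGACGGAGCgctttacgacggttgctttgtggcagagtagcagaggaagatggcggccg
Psme1: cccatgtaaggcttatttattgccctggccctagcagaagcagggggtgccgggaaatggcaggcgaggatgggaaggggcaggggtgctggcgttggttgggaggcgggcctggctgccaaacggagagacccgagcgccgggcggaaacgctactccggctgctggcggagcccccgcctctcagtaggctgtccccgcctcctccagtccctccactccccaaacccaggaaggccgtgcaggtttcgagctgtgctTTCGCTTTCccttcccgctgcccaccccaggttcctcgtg
The capitals are a GAS match in Psmb8, a CCAAT match in Psmb9, antioxidant response element cores in Psmb5 and Psmb6 and a match to the interferon element in Psme1, while the window of Psmb10 held none of the 4 motifs. The 2 listed windows of Psme2, the partner of Psme1, also held none of the 4 and are not shown. Psmb9 shares its start region with Tap1, a transporter of class I peptides that is read in the opposite direction from a start 224 bases away. Among the 40 tested proteasome genes with a listed start region, 7 held the interferon element, 3 GAS, 6 the antioxidant core and 13 CCAAT. The shares over 27025 genes were 9.76%, 9.55%, 14.0% and 41.1%. A match is a description of letters and not of a bound factor.

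Depth lay between 9275711 and 15480388 reads on genes (median 12522298.5), so that a single read was worth 0.0646 to 0.108 CPM. Differences are log2 fold changes on the log2(CPM + 1) scale ± SE, from a limma fit of all 6 groups with Benjamini-Hochberg adjustment over all genes tested, and a gene is called at an adjusted p under 0.05. No source pairs the mice across groups. The values of each mouse sum to the same total, so a gene's value also depends on what the other genes take. The median difference of all genes between HFD and CD mice was 0.11 at 8 weeks, 0.14 at 20 weeks and 0.07 at 34 weeks, and with TMM factors (edgeR's trimmed mean scaling) applied it was 0.01, -0.07 and -0.01. Counts of higher and lower proteasome genes are therefore given under both scalings for the diet comparisons and for HFD mice at 34 against 8 weeks. Other such counts use CPM without TMM factors unless another fit is named. Adipocyte markers (Adipoq, Plin1 and 6 others) summed to a median of 36413 CPM in CD and 34951 CPM in HFD mice at 8 weeks, 36357 and 26789 CPM at 20 weeks, and 35784 and 24968 CPM at 34 weeks. Of these 8 markers, 1, 5 and 7 were called lower in HFD mice in order of time, and 1, 1 and 0 were called higher. The summed level of 14 macrophage markers was 709 CPM at the median of CD mice and 2169 CPM in HFD mice at 8 weeks, 1614 and 8570 CPM at 20 weeks, and 4271 and 13659 CPM at 34 weeks. In bulk RNA of this kind, fewer cells of a type and less RNA per cell cannot be told apart.

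Diet differences were called at 1 or more times in 24 of the 47 proteasome genes, most of them at a single time. This share is below that over all genes, of which 5894 of 10343 were called at 20 weeks alone. At 8 weeks 12 of 47 were called higher (background over all genes 29.8%) and 1 lower (15.1%), at 20 weeks 6 were higher (38.3%) and 4 lower (18.7%), and at 34 weeks 1 was higher (27.5%) and 10 were lower (15.7%). The share called higher was 25.5% at 8 weeks, near the background, and lay below it at 20 and 34 weeks, while the share called lower at 34 weeks was 21.3%. With TMM factors 4 were higher (22.6% of all genes) and 1 lower (21.4%) at 8 weeks. At 20 weeks 1 was then higher (26.3%) and 15 were lower (32.4%), and at 34 weeks 0 were higher (22.4%) and 18 lower (20.8%). Lower genes thus outnumbered higher ones at 34 weeks under both scalings, whereas the balance at 20 weeks turned with the scaling, with a share of lower genes near that over all genes. With the macrophage markers' mean level as a covariate, 7 were higher (19.5% of all genes) and 0 lower (14.8%) at 8 weeks. That fit had 2 higher (9.46%) and 0 lower (5.57%) at 20 weeks, and 0 higher (1.9%) and 0 lower (1.72%) at 34 weeks. Few genes of any kind were thus called at 34 weeks with the covariate. At 34 weeks the unadjusted p was under 0.05 for 17 of 47 genes in the limma fit without the covariate (51.4% of all genes). In all, 23 genes were called at no time, and Psmd8 (higher) and Psmd11 (lower) were the 2 called at all 3 times. The shares of all genes called at no time or at all 3 times were not computed. In 10 other settings the call at 34 weeks held in 2 for Psmd8 and in 6 for Psmd11. These diet comparisons use different mice at each time.

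**Figure D1:**
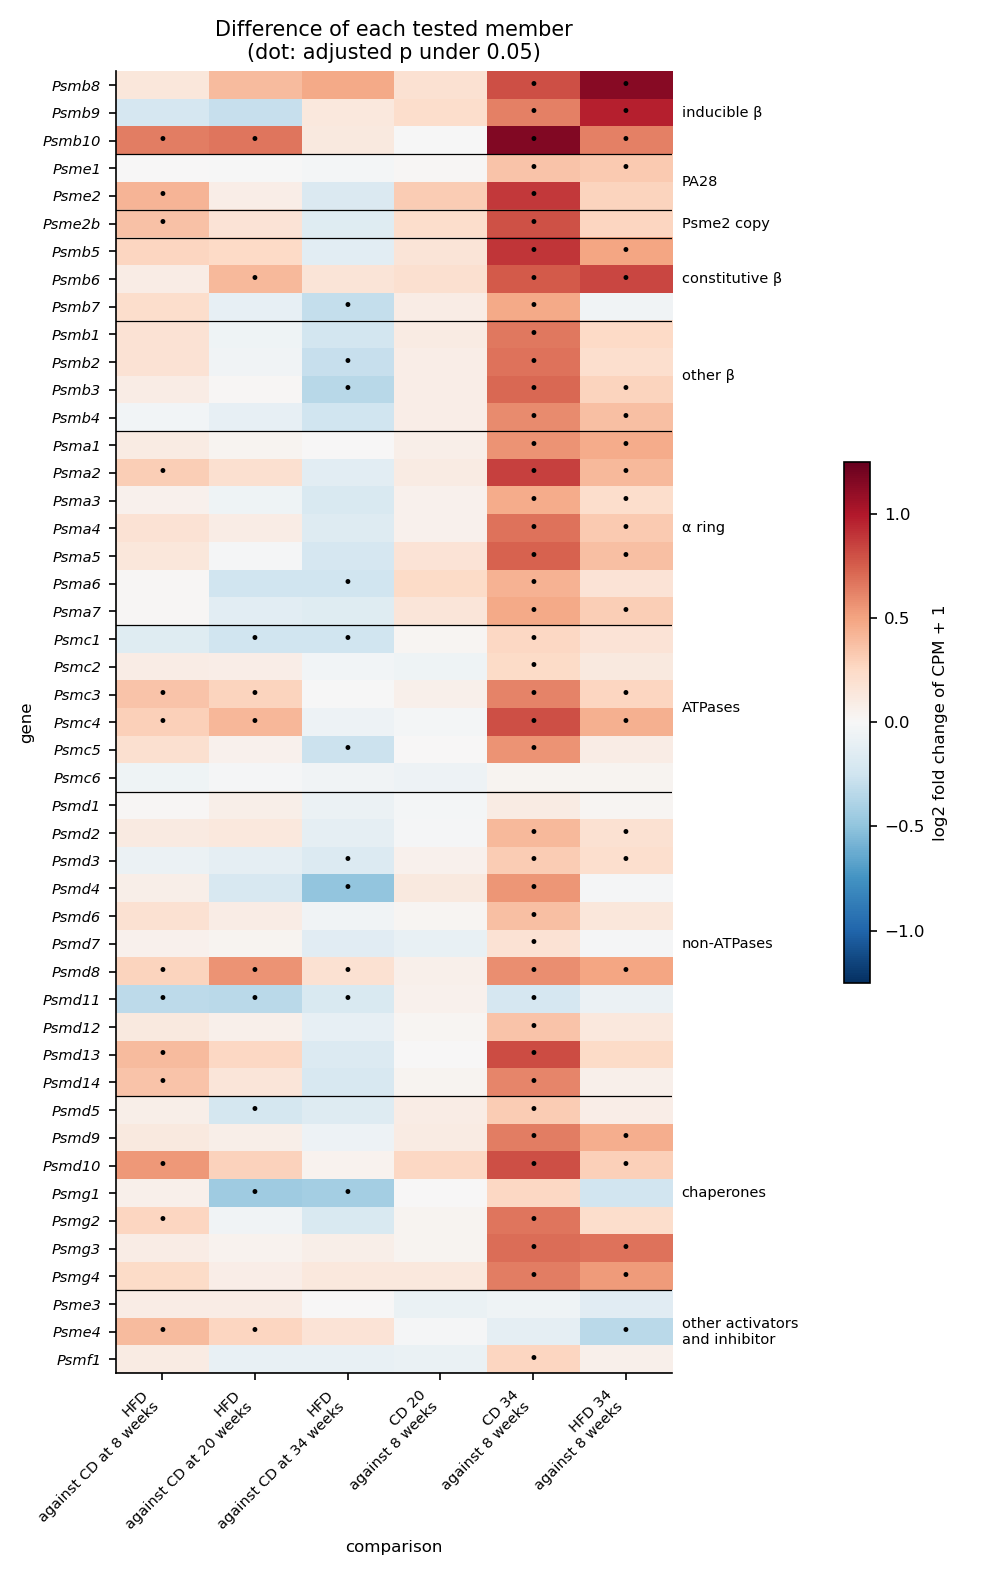
Log2 fold changes of the 47 tested proteasome genes (rows, grouped by role) in 6 comparisons (columns), with red for higher and blue for lower and a dot where limma's adjusted p was under 0.05. The column for CD at 34 against 8 weeks is red with 41 genes called higher, whereas the HFD against CD columns hold 12, 6 and 1 higher and 1, 4 and 10 lower genes; with TMM factors the balance at 20 weeks turns to 1 higher and 15 lower, beside 26.3% and 32.4% of all genes.

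Of the 3 inducible catalytic subunits, Psmb10 was called higher in HFD mice at 8 and 20 weeks, and Psmb8 and Psmb9 were called at no time. At 8 weeks Psmb10 was at 21.1 to 32.7 CPM (median 24.1) in CD mice and at 24.9 to 59.7 CPM (median 41.3) in HFD mice. At 20 weeks Psmb10 was at 21.3 to 39.5 CPM (median 23.2) in CD mice and at 34.8 to 44.8 CPM (median 41.4) in HFD mice. At 34 weeks Psmb10 was at 36.03 to 119 CPM (median 55.01) in CD mice and at 50.8 to 88.8 CPM (median 59.4) in HFD mice. HFD mice were higher at the median at every time, but the groups overlapped throughout, and the CD group at 34 weeks spread most. Psmb10, which replaces the trypsin-like subunit Psmb7, was called higher at 8 weeks (log2 fold change 0.64 ± 0.22, adjusted p = 0.0195) and at 20 weeks (0.67 ± 0.22, adjusted p = 0.0110), but not at 34 weeks (0.12 ± 0.21, adjusted p = 0.653). The call at 8 weeks was lost without HFD mouse 3 (0.53, adjusted p = 0.0682) or 6 (0.54, adjusted p = 0.0627), and when genes of like transcript length were centred (0.44, adjusted p = 0.0619). Macrophage markers rose in the same comparisons, with 11 of 14 called higher at 8 weeks, 12 at 20 weeks and 14 at 34 weeks. Endothelial markers were called higher in 5, 4 and 5 of 5 at the 3 times, and progenitor and fibroblast markers in 3, 4 and 2 of 4. The part of these cell types in the values was not tested. With the mean level of the macrophage markers as a covariate Psmb10 differed by 0.28 at 8 weeks (adjusted p = 0.356) and by 0.054 at 20 weeks (adjusted p = 0.920), and with TMM factors its difference at 20 weeks was 0.46 (adjusted p = 0.056). Defining markers of T, B and NK cells were near 0, at summed levels of at most 3.34, 5.82 and 0.662 CPM in any mouse.

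Psmb8 encodes the inducible counterpart of the chymotrypsin-like Psmb5. At 8 weeks Psmb8 was at 24.3 to 48.6 CPM (median 31.03) in CD mice and at 24.7 to 48.0 CPM (median 36.9) in HFD mice. At 20 weeks Psmb8 was at 27.8 to 50.4 CPM (median 35.6) in CD mice and at 45.6 to 51.4 CPM (median 48.6) in HFD mice. At 34 weeks Psmb8 was at 30.4 to 105 CPM (median 61.2) in CD mice and at 64.5 to 126 CPM (median 70.5) in HFD mice. The HFD mice at 20 weeks lay in a narrow band around the top of the CD range, and the groups overlapped at each time. No diet difference of Psmb8 was called, with 0.14 ± 0.23 at 8 weeks (adjusted p = 0.640), 0.39 ± 0.23 at 20 weeks (adjusted p = 0.150) and 0.47 ± 0.22 at 34 weeks (adjusted p = 0.0764). The 95% interval at 34 weeks, 0.029 to 0.91, leaves room for a rise of the size seen for Psmb10, and the difference passed the threshold without CD mouse 2 (0.55, adjusted p = 0.0401), 3 (0.59, adjusted p = 0.0236) or 5 (0.53, adjusted p = 0.0477), and after centring on transcript length (0.49, adjusted p = 0.0448). When each time was fitted separately the difference at 20 weeks passed it as well (0.39, adjusted p = 0.0088). Over 10 other settings of scaling, tool, filter, covariate and length centring, however, Psmb8 was called in 0, 1 and 1 in order of time. Its differences there ran from -0.33 to 0.14 at 8 weeks, from -0.40 to 0.40 at 20 weeks and from -0.072 to 0.49 at 34 weeks. The direction thus turned with the setting at each time.

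Psmb9 is the inducible counterpart of the caspase-like Psmb6. At 8 weeks Psmb9 was at 14.5 to 18.2 CPM (median 16.9) in CD mice and at 10.96 to 17.6 CPM (median 14.3) in HFD mice. At 20 weeks Psmb9 was at 15.4 to 27.9 CPM (median 18.2) in CD mice and at 13.1 to 19.7 CPM (median 15.6) in HFD mice. At 34 weeks Psmb9 was at 15.4 to 54.9 CPM (median 24.9) in CD mice and at 23.2 to 53.7 CPM (median 24.5) in HFD mice. HFD medians were the lower ones at all 3 times, with overlapping groups. The differences were -0.21 ± 0.22 (adjusted p = 0.456), -0.28 ± 0.22 (adjusted p = 0.276) and 0.13 ± 0.21 (adjusted p = 0.626). With TMM factors the difference at 20 weeks was -0.49 and passed the threshold (adjusted p = 0.0448).

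**Figure D2:**
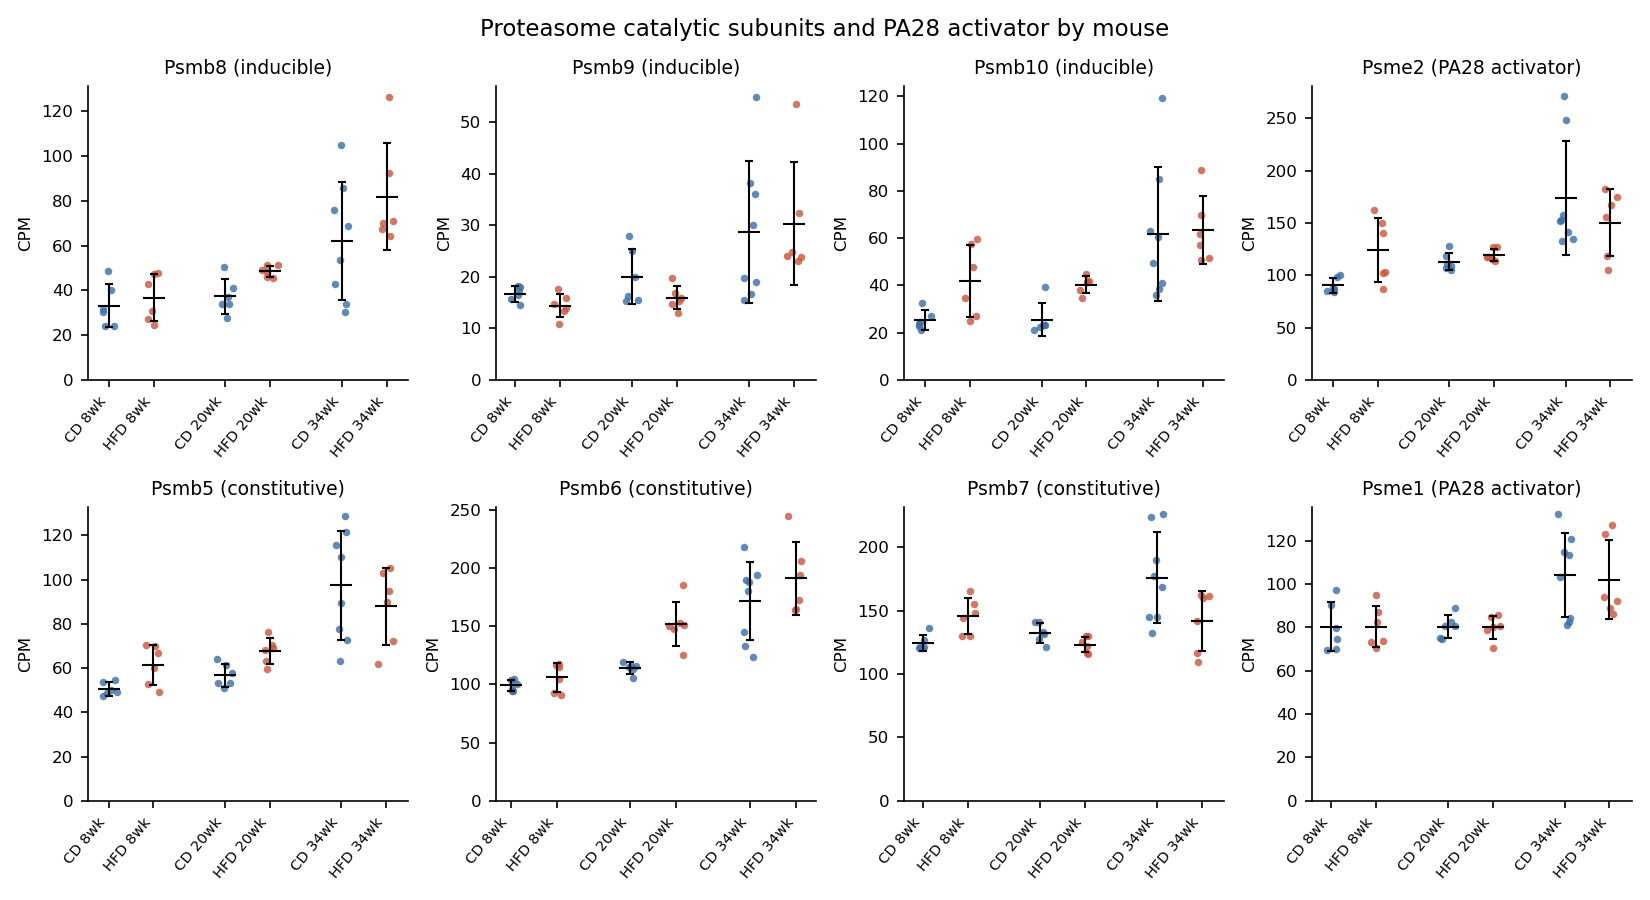
CPM of the 3 inducible catalytic subunits, PA28 subunits and 3 constitutive catalytic subunits in each of the 38 mice (points; CD blue, HFD red) with mean ± SD by group. Psmb10 medians are 24.1 CPM on CD against 41.3 on HFD at 8 weeks and 23.2 against 41.4 at 20 weeks, while Psmb9 medians go from 16.9 to 14.3 and from 18.2 to 15.6; all 8 genes are called higher in CD mice at 34 weeks than at 8 weeks, but when genes of like transcript length are centred Psme1 and Psmb7 turn in direction and the calls of Psmb6 and Psmb9 are lost.

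Of the PA28 subunits, Psme2 was called higher at 8 weeks and Psme1 at no time. At 8 weeks Psme1 was at 69.5 to 97.1 CPM (median 77.1) in CD mice and at 70.7 to 94.7 CPM (median 77.99) in HFD mice. At 20 weeks Psme1 was at 74.7 to 88.7 CPM (median 80.7) in CD mice and at 70.3 to 85.6 CPM (median 80.3) in HFD mice. At 34 weeks Psme1 was at 81.2 to 132 CPM (median 108) in CD mice and at 86.4 to 127 CPM (median 93.1) in HFD mice. The ranges of the diets overlapped over most of their width. The differences of Psme1, the alpha subunit, were 0.0043, -0.0063 and -0.024 at 8, 20 and 34 weeks, with 95% intervals of -0.23 to 0.24, -0.24 to 0.23 and -0.24 to 0.19. After centring on transcript length the difference at 8 weeks turned to -0.22 and was called lower (adjusted p = 0.0292). Psme2, the beta subunit, was at 83.7 to 100.03 CPM (median 87.7) in CD mice and at 87.1 to 162 CPM (median 122) in HFD mice at 8 weeks, with 1 range overlapping the other at its lower end. It was called higher at 8 weeks (0.42 ± 0.16, adjusted p = 0.0274) but not at 20 weeks (0.082 ± 0.16, adjusted p = 0.672) or 34 weeks (-0.18 ± 0.15, adjusted p = 0.312). Its call at 8 weeks was lost with TMM factors (0.32, adjusted p = 0.0939), with the macrophage covariate (0.35, adjusted p = 0.132) and without CD mouse 3 (0.40, adjusted p = 0.0525) or HFD mouse 3 (0.36, adjusted p = 0.0791), 4 (0.38, adjusted p = 0.068) or 6 (0.34, adjusted p = 0.0909). Psme2b, whose reads overlap those of Psme2 in sequence, moved by 0.37 ± 0.14 in the same comparison (adjusted p = 0.0330).

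Of the constitutive catalytic subunits, Psmb6 and Psmb7 were called at 1 time each, in opposite directions. Psmb6 was at 105 to 119 CPM (median 115) in CD and at 125 to 185 CPM (median 150.5) in HFD mice at 20 weeks, with no overlap, and was called higher then (0.40 ± 0.11, adjusted p = 0.00271; 0.19 and adjusted p = 0.181 with TMM factors, 0.22 and 0.342 with the macrophage covariate). Psmb7 was at 132 to 226 CPM (median 173) in CD and at 109.9 to 162 CPM (median 151) in HFD mice at 34 weeks, where it was called lower (-0.30 ± 0.10, adjusted p = 0.0154). That call was lost without HFD mouse 2 (-0.25, adjusted p = 0.0593) or 3 (-0.23, adjusted p = 0.073), with the macrophage covariate (-0.092, adjusted p = 0.724) and when 34 weeks was fitted separately (adjusted p = 0.140). The ranges overlapped. With the covariate Psmb7 was instead called higher at 8 weeks (0.40, adjusted p = 0.00494). Psmb5 was called at no time, with 0.27 ± 0.14 at 8 weeks (adjusted p = 0.112), 0.25 ± 0.14 at 20 weeks (adjusted p = 0.120) and -0.13 ± 0.13 at 34 weeks (adjusted p = 0.427). Separate fits of each time called it higher at 8 weeks (0.27, adjusted p = 0.0255) and 20 weeks (0.25, adjusted p = 0.011). At 8 weeks its range in CD mice was 47.1 to 54.7 CPM (median 49.4) and in HFD mice 49.3 to 70.3 CPM (median 63.4).

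Each inducible subunit was then set against the constitutive subunit it replaces in the same mouse, as the difference of their log2(CPM + 1) values, which does not depend on the scaling of a library. The level of this log2 ratio also carries the lengths of both transcripts, so only its change between diets was read. That change was not centred on transcript length. Across all genes with a known length, the diet difference had a Spearman's rho with length of -0.13, 0.07 and 0.18 at 8, 20 and 34 weeks. For Psmb9 to Psmb6 the log2 ratio was -2.71 to -2.35 (median -2.49) in CD and -3.14 to -2.61 (median -2.76) in HFD mice at 8 weeks. At 20 weeks it was -2.84 to -1.99 (median -2.58) and -3.56 to -2.60 (median -3.19). At both times the HFD mice were the lower ones with some overlap. The difference was -0.30 ± 0.096 at 8 weeks (exact permutation test, two-sided, p = 0.0108, adjusted over 9 comparisons 0.0325) and -0.69 ± 0.19 at 20 weeks (exact p = 0.00866, adjusted 0.0325). At 8 weeks 0 of 6 HFD mice were above the CD mean. For Psmb10 to Psmb7 the log2 ratio at 20 weeks was -2.67 to -1.60 (median -2.48) in CD and -1.78 to -1.46 (median -1.57) in HFD mice, a difference of 0.77 ± 0.16 with 6 of 6 HFD mice above the CD mean (exact permutation p = 0.00649, adjusted 0.0325). At 8 weeks, when Psmb10 itself was called higher, this ratio differed by 0.42 ± 0.20 and did not pass (exact permutation p = 0.0606, adjusted 0.136). The ratio of Psmb8 to Psmb5 passed the threshold at no time, with differences of -0.13 ± 0.17, 0.14 ± 0.15 and 0.60 ± 0.31 at 8, 20 and 34 weeks (adjusted exact permutation p = 0.541, 0.509 and 0.188). At 34 weeks neither of the other ratios passed the threshold, with -0.034 ± 0.29 for Psmb9 to Psmb6 and 0.42 ± 0.27 for Psmb10 to Psmb7. The smallest p these tests can give is 0.00216 at 8 and 20 weeks and 0.000666 at 34 weeks. Leaving out single mice kept the result for Psmb10 to Psmb7 at 20 weeks (0.71 to 0.93), whereas the adjusted exact p for Psmb9 to Psmb6 rose above 0.05 without any of 7 of the 12 mice at 8 weeks and 5 of the 12 at 20 weeks. The ratios were not fitted with the macrophage covariate. CD mouse 1 at 20 weeks, with the highest macrophage marker level of its group, had a Psmb10 to Psmb7 ratio of -1.60, inside the HFD range. The rest of its group lay at -2.67 to -2.41. The part of macrophage RNA in the ratios was not tested.

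**Figure D3:**
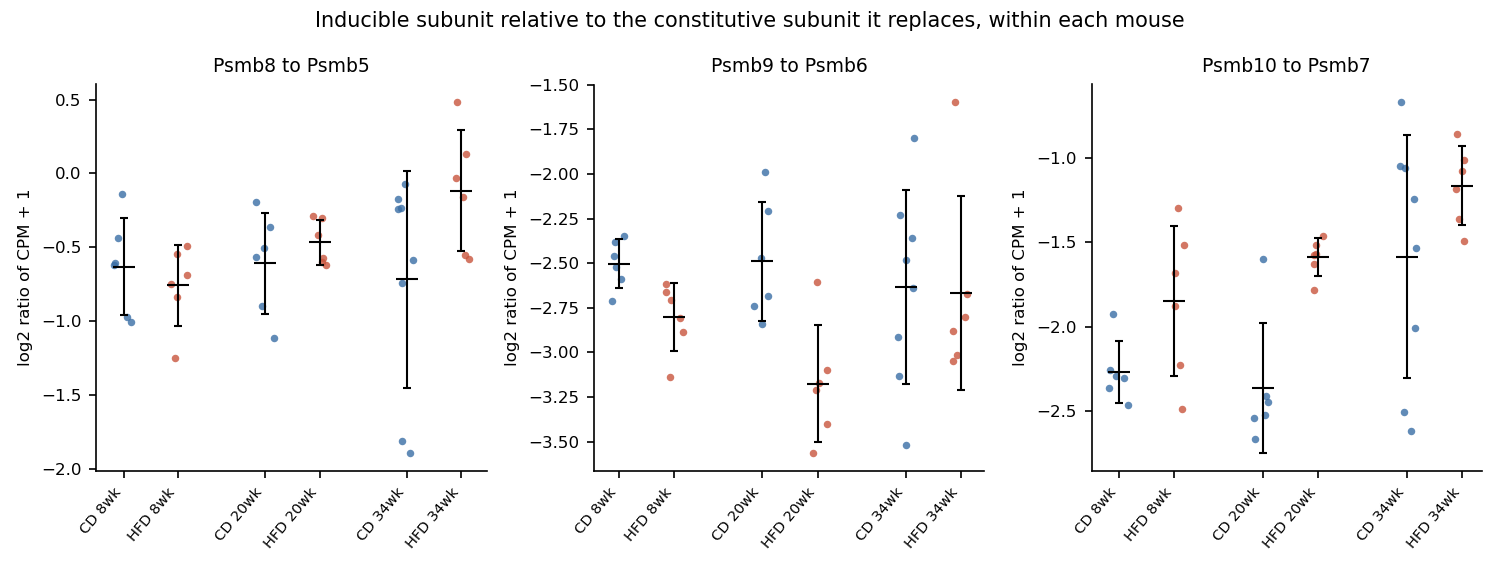
Log2 ratio of each inducible catalytic subunit to the constitutive subunit it replaces, within each mouse (points; CD blue, HFD red; mean ± SD by group, from log2(CPM + 1) values). At 20 weeks the Psmb10 to Psmb7 ratio is higher in HFD mice by 0.77 while the Psmb9 to Psmb6 ratio differs by -0.69, and CD mice at 34 weeks spread widely in all 3 panels.

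Among the core and cap genes, the non-ATPases held both members called at all 3 times. Psmd8, a lid subunit of the cap, was at 127 to 151 CPM (median 138) in CD and 160.5 to 171 CPM (median 166) in HFD mice at 8 weeks. At 20 weeks its levels were 129 to 161 CPM (median 141) and 197 to 224 CPM (median 211), and at 34 weeks 176 to 252 CPM (median 204) and 196 to 258 CPM (median 246). The diets did not overlap at 8 or 20 weeks. Psmd8 was higher by 0.28 ± 0.076 (adjusted p = 0.00425), 0.56 ± 0.076 (adjusted p = 4.25e-07) and 0.19 ± 0.071 (adjusted p = 0.0335). The call at 20 weeks held in each of 10 settings of scaling, tool, filter and covariate. That at 8 weeks held in 7 of the 10 and was lost with TMM factors (0.17, adjusted p = 0.0701) and edgeR (0.17, adjusted p = 0.0793), among others. The call at 34 weeks held in only 2 of the 10. It was lost with TMM factors (0.097, adjusted p = 0.276), median-of-ratios factors (0.095, adjusted p = 0.263), edgeR (0.097, adjusted p = 0.276) and DESeq2 (0.096, adjusted p = 0.234). It was also lost with the macrophage covariate (0.15, adjusted p = 0.375), in the separate fit (0.19, adjusted p = 0.196) and without any of 7 single mice (0.16 to 0.17). Psmd11, another lid subunit, which was singled out after its values were seen, went the other way. It was at 92.7 to 108 CPM (median 98.3) in CD and 73.2 to 83.2 CPM (median 78.4) in HFD mice at 8 weeks and at 95.6 to 114 CPM (median 101) and 74.6 to 91.3 CPM (median 79.7) at 20 weeks, again without overlap. The differences were -0.33 ± 0.081 (adjusted p = 0.00167), -0.34 ± 0.081 (adjusted p = 0.000632) and -0.19 ± 0.076 at 34 weeks (adjusted p = 0.0399). With the macrophage covariate they were -0.19 (adjusted p = 0.0718), -0.10 (adjusted p = 0.520) and -0.028 (adjusted p = 0.902), and the call at 34 weeks was also lost without any of 7 single mice (-0.19 to -0.14).

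In every other class of core, cap and chaperone genes at most 2 were called in a direction at any time. Of the 6 ATPases, Psmc4 was at 55.2 to 70.3 CPM (median 58.2) in CD and 75.4 to 88.3 CPM (median 81.4) in HFD mice at 20 weeks, without overlap, and was called higher at 8 weeks (0.30 ± 0.11, adjusted p = 0.0220) and 20 weeks (0.42 ± 0.11, adjusted p = 0.00137), though with TMM factors its differences were 0.20 at both times (adjusted p = 0.150 and 0.118) and with the macrophage covariate 0.24 and 0.30 (adjusted p = 0.134 and 0.163). Psmd10, known as gankyrin, helps assemble the ATPase ring. It was at 10.3 to 15.2 CPM (median 13.4) in CD and 14.2 to 25.98 CPM (median 20.1) in HFD mice at 8 weeks, and its rise of 0.54 ± 0.13 (adjusted p = 0.000966) held in each of 10 settings. The same was true of Psme4, which encodes the activator PA200, at 131 to 166 CPM (median 145) and 152 to 223 CPM (median 198) and higher by 0.39 ± 0.11 (adjusted p = 0.00563). Of the 7 alpha subunits, Psma2 was called higher at 8 weeks, at 73.9 to 85.9 CPM (median 78.8) in CD and 76.1 to 117 CPM (median 102) in HFD mice (0.31 ± 0.11, adjusted p = 0.0189; 0.20 and adjusted p = 0.156 with TMM factors, 0.27 and 0.0846 with the macrophage covariate). The calls of Psmc4 and Psma2 at 8 weeks were lost without HFD mouse 3, 4 or 6 (0.24 to 0.26 for Psmc4 and 0.26 to 0.27 for Psma2), and that of Psme4 at 20 weeks (0.27 ± 0.11, adjusted p = 0.0418) without any of 9 of the 12 mice (0.23 to 0.27). The ranges of Psmd10, Psme4 and Psma2 overlapped between diets.

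Regarding separation of the diets, 3 genes were higher and 1 lower without overlap at 8 weeks, against 22.8% of all genes in either direction. At 20 weeks 4 were higher (Psmb6, Psmc3, Psmc4 and Psmd8) and 3 lower (Psma6, Psmd11 and Psmg1), against 37.2%. At 34 weeks 0 of 47 separated, against 2.46%, and the largest differences among the genes called lower were those of Psmd4, a ubiquitin receptor of the cap (-0.50 ± 0.11, adjusted p = 0.000872), and of the core chaperone Psmg1 (-0.43 ± 0.12, adjusted p = 0.00565). Psmd4 was at 162 to 291 CPM (median 205) in CD and 118 to 174 CPM (median 155) in HFD mice. Of the Psmb1 to Psmb4 structural subunits, Psmb3 was at 85.7 to 150.5 CPM (median 110.1) and 71.2 to 102 CPM (median 93.6) (-0.34 ± 0.10, adjusted p = 0.00641; -0.19 and 0.408 with the macrophage covariate). The median difference of the 31 core and cap genes was 0.11 at 8 weeks, 0.04 at 20 weeks and -0.16 at 34 weeks, beside 0.11, 0.14 and 0.07 for all genes. The number called lower at 34 weeks fell from 10 to 5 without CD mouse 4, without HFD mouse 2 or without HFD mouse 3, and to 6 without CD mouse 6.

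Time on chow, in contrast, went with higher levels of nearly every proteasome gene. Between 8 and 34 weeks on CD, 41 of 47 were called higher (background 40.1%) and 1 lower (24.6%), and 26 were higher without overlap (24.7% of all genes in either direction). All 7 alpha subunits, the 3 constitutive and the 3 inducible catalytic subunits, Psmb1 to Psmb4, Psme1 and Psme2 were among them, as were 5 of 6 ATPases, 9 of 11 non-ATPases and 6 of 7 chaperones. The median rise was 0.56 for the alpha ring, 0.76 for Psmb5 to Psmb7, 0.81 for Psmb8 to Psmb10, 0.41 for the ATPases and 0.37 for the non-ATPases, beside 0.13 for all genes. Psmd11 was the gene called lower (-0.21 ± 0.076, adjusted p = 0.0159), and Psme4 was not called (-0.11 ± 0.11, adjusted p = 0.352). Since the time groups are separate sets of mice, age, time on diet and cohort cannot be told apart.

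Psmb10 had the largest rise in this fit, from 21.1 to 32.7 CPM (median 24.1) at 8 weeks to 36.03 to 119 CPM (median 55.01) at 34 weeks on CD, without overlap (1.16 ± 0.21, adjusted p = 1.83e-05). Psmb5 went from 47.1 to 54.7 CPM (median 49.4) to 63.2 to 129 CPM (median 99.8) (0.89 ± 0.13, adjusted p = 7.15e-07), and Psme2 from 83.7 to 100.03 CPM (median 87.7) to 132 to 271 CPM (median 152) (0.89 ± 0.15, adjusted p = 4.81e-06), both without overlap. The rise thus took in inducible and constitutive catalytic subunits alike. Psmb8 (0.81 ± 0.22, adjusted p = 0.00166) and Psmb9 (0.63 ± 0.21, adjusted p = 0.00874) rose with overlapping ranges, and Psmb6 (0.76 ± 0.10, adjusted p = 3.24e-07) without overlap. The calls of Psmb9 (0.19, adjusted p = 0.360) and Psmb6 (0.14, adjusted p = 0.130) were lost after the centring on transcript length described next. Psmb10, Psme2, Psmb5, Psma2, Psmc4, Psmd8 and Psmd10 were called higher in each of 9 settings. With the macrophage covariate Psmb8 differed by 0.14 (adjusted p = 0.630) and Psmb9 by 0.34 (adjusted p = 0.289), while 39 of 47 genes were called higher in that fit (27.1% of all genes). Macrophage markers differed in the same comparison (13 of 14 called higher), from 392 to 1894 CPM (median 709) summed in CD mice at 8 weeks to 1256 to 14464 CPM (median 4271) at 34 weeks.

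Transcript length moved with this comparison. Across 10312 genes the rise between 8 and 34 weeks on CD was larger for short transcripts (Spearman's rho with length -0.39, and -0.48 across the 47 proteasome genes, given as a description across genes). Of genes whose longest transcript had at most 1000 bases 79.6% were called higher, of those of 1001 to 2000 bases 63.2%, and of those over 5000 bases 17.6%. Most proteasome genes lie in the short classes, where 8 of 8 and 26 of 27 were called higher. For centring, a step added after seeing the data, genes were ranked by length and cut into equal-sized classes much finer than those above. Within each mouse, each class was centred on the median of its genes' deviations from their means over all mice. After this, 21 proteasome genes were called higher and 4 lower (30.9% and 27.4% of all genes). The median rise of the 31 core and cap genes was 0.09 instead of 0.56. Psme1 and Psmb7 then turned to -0.16 and -0.04 and were not called, and neither were Psmb6, Psmb9 and Psmb3 (0.09, adjusted p = 0.289). Of the diet calls of the named genes, those of Psmb10, Psma2, Psmc4 and Psmd8 at 8 weeks, Psme4 at 20 weeks and Psmd8 at 34 weeks were lost as well. Psmb5 at 20 weeks (0.19, adjusted p = 0.0401) and Psmb6 at 34 weeks (0.32, adjusted p = 0.00157) were then called higher in HFD mice. How transcript length comes to move with the comparison was not tested.

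**Figure D4:**
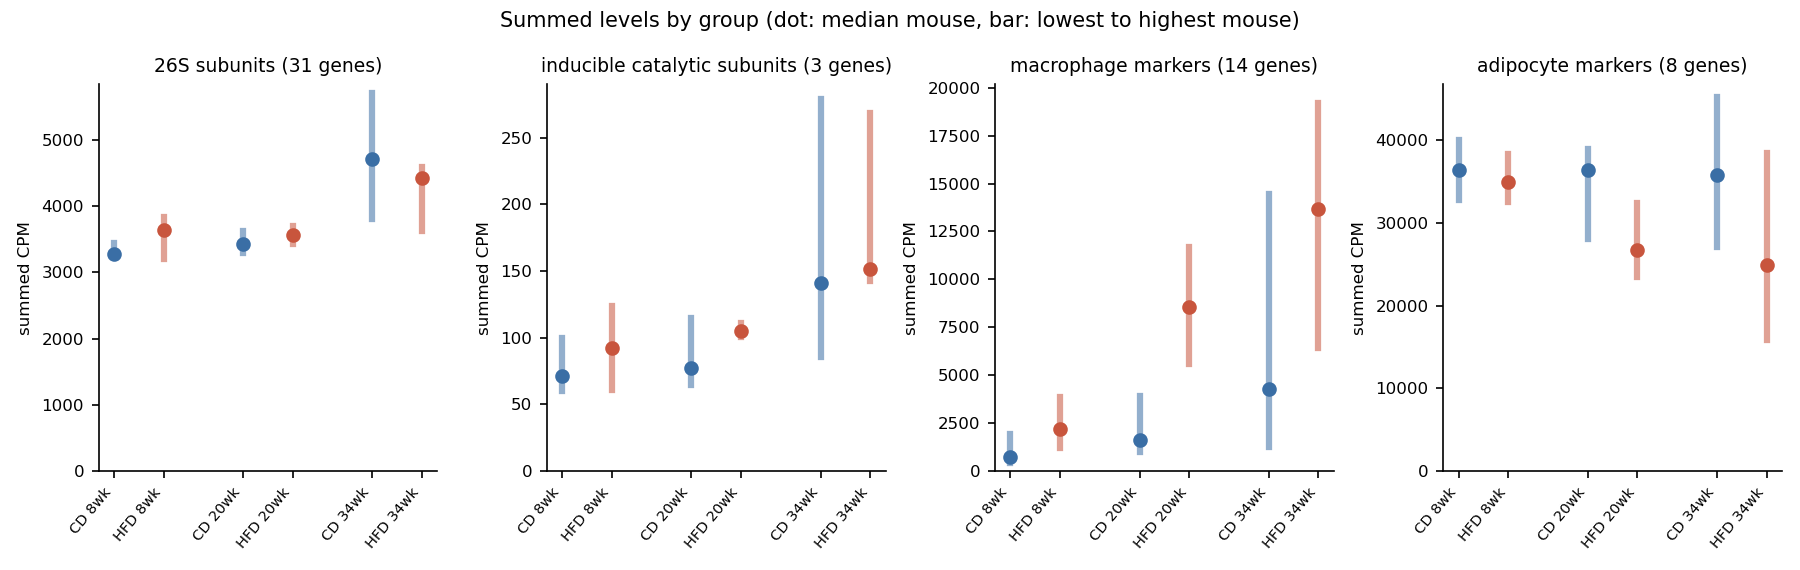
Summed CPM by group (dot, median of mice; bar, lowest to highest mouse) of the 31 core and cap genes, the 3 inducible catalytic subunits, 14 macrophage markers and 8 adipocyte markers. The core and cap sum has a median of 3278 CPM in CD mice at 8 weeks and 4712 at 34 weeks, a rise that was mostly lost after centring on transcript length; the macrophage sum goes from 709 to 4271 CPM between the same groups.

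The summed level of the 31 core and cap genes was 3236 to 3440.2 CPM (median 3278), 3292 to 3629 CPM (median 3428) and 3813 to 5718 CPM (median 4712) at 8, 20 and 34 weeks on CD, and 3209.6 to 3845 CPM (median 3644), 3429 to 3708 CPM (median 3561) and 3624 to 4588 CPM (median 4425) on HFD. The highest values were those of CD mice at 34 weeks. Between 8 and 20 weeks on CD, 0 of 47 genes were called by limma (background 3.58% in either direction), with 2 at an unadjusted p under 0.05 and 0 called by edgeR or DESeq2. Between 8 and 34 weeks on HFD 23 were called higher (31.7%) and 1 lower (20.8%), or 12 (24.8%) and 2 (27.7%) with TMM factors. Psmb8 and Psmb9 rose there by 1.14 ± 0.23 (adjusted p = 0.000149) and 0.97 ± 0.22 (adjusted p = 0.000515), both without overlap, and Psmb6 by 0.83 ± 0.11 (adjusted p = 9.63e-07). Psmb7 (-0.048 ± 0.11, adjusted p = 0.728) and Psme2 (0.28 ± 0.16, adjusted p = 0.128) were not called in HFD mice. This comparison and that on CD use different mice, but both draw on the groups of the diet comparisons, and their difference was not tested as such.

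Whether the diet difference itself changed with time was tested as an interaction. From 8 to 20 weeks limma called 0 of 47 genes (background 4.49%), with 5 at an unadjusted p under 0.05 and 0 called by edgeR or DESeq2. From 20 to 34 weeks 0 were called higher (4.22%) and 2 lower (6.31%), with 9 at an unadjusted p under 0.05. These were Psmc4 (-0.48 ± 0.15, adjusted p = 0.0327) and Psmd8 (-0.38 ± 0.10, adjusted p = 0.0186), whose diet differences were 0.42 and 0.56 at 20 weeks and -0.061 and 0.19 at 34 weeks. DESeq2 called 0 higher and 2 lower, and edgeR called 0. The change of the Psmb10 diet difference between 20 and 34 weeks was not called (-0.55 ± 0.31, adjusted p = 0.240).

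Genes that work with the proteasome were taken from lists. For comparison, 29.8% of all genes were called higher and 15.1% lower in HFD mice at 8 weeks, and 38.3% and 18.7% at 20 weeks. These shares were 27.5% and 15.7% at 34 weeks, and 40.1% and 24.6% between 8 and 34 weeks on CD. Of 14 partners that assemble, edit or feed the proteasome, 5 were higher and 2 lower at 8 weeks, 1 and 3 at 20 weeks, 3 and 2 at 34 weeks, and 5 and 3 between 8 and 34 weeks on CD. The core assembly factor Pomp was at 85.02 to 98.6 CPM (median 90.3) in CD and 85.4 to 135 CPM (median 121) in HFD mice at 8 weeks (0.34 ± 0.14, adjusted p = 0.0494) and rose on CD by 34 weeks (0.84 ± 0.13, adjusted p = 3.08e-06). Zfand2a, a stress-induced proteasome-binding protein, had log2 fold changes on HFD of 0.59, 1.20 and 0.54 in order of time (adjusted p = 0.0348, 3.80e-05 and 0.0373). Its relative Zfand5 was lower at 8 weeks (-0.69 ± 0.13, adjusted p = 0.000109) and 20 weeks (-0.89 ± 0.13, adjusted p = 1.07e-06), at 403 to 469.9 CPM (median 424) in CD and 210.4 to 278 CPM (median 225) in HFD mice at 20 weeks. Of 7 genes that control proteasome gene transcription, 0 were higher and 3 lower at 8 weeks, 0 and 1 at 20 weeks, 1 and 1 at 34 weeks, and 0 and 6 between 8 and 34 weeks on CD. Their part in the levels of the proteasome genes was not tested. Nfe2l1, the main activator of these genes when proteasome function is short, was not called in any of the 4 comparisons (0.25, 0.0017, -0.096 and -0.17). Its relative Nfe2l2 differed by -0.51 at 8 weeks (adjusted p = 0.0259), by 0.53 at 34 weeks (adjusted p = 0.0135) and by -0.75 between 8 and 34 weeks on CD (adjusted p = 0.000339). Of 5 ubiquitin genes, 0, 1 and 1 were higher and 1, 1 and 1 lower in HFD mice at the 3 times, and 3 were higher and 1 lower between 8 and 34 weeks on CD.

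Most interferon gamma signalling genes of the list were called lower in HFD mice at 8 and 20 weeks. Of 15 such genes 2 were higher (29.8% of all genes) and 11 lower (15.1%) in HFD mice at 8 weeks. At 20 weeks 2 (38.3%) were higher and 9 (18.7%) lower, and at 34 weeks 4 (27.5%) and 1 (15.7%). The chemokine gene Cxcl10, a classical target of interferon, was at 807 to 2100.01 CPM (median 1211) in CD and 146 to 308 CPM (median 229.5) in HFD mice at 20 weeks (-2.44 ± 0.32, adjusted p = 2.37e-07). Irf1, the transcription factor that drives the inducible subunits, was at 425 to 851 CPM (median 555) and 144 to 461 CPM (median 188) at 8 weeks (-1.48 ± 0.28, adjusted p = 9.81e-05). Ifngr2, a subunit of the interferon gamma receptor, was higher at 8 weeks (0.82 ± 0.21, adjusted p = 0.00225), 20 weeks (1.09 ± 0.21, adjusted p = 5.20e-05) and 34 weeks (0.90 ± 0.20, adjusted p = 0.000638). Between 8 and 34 weeks on CD 2 of the 15 were higher (40.1% of all genes) and 11 lower (24.6%). Whether these genes had a part in the levels of the inducible subunits was not tested.

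Of 11 genes of class I peptide loading, 2 were higher (29.8% of all genes) and 2 lower (15.1%) at 8 weeks, and 6 (38.3%) and 2 (18.7%) at 20 weeks. At 34 weeks 4 (27.5%) were higher and 0 (15.7%) lower, and between 8 and 34 weeks on CD 4 (40.1%) and 2 (24.6%). Tap1, which shares its start region with Psmb9, was at 41.9 to 70.8 CPM (median 50.9) in CD and 27.1 to 43.96 CPM (median 30.99) in HFD mice at 8 weeks and at 65.7 to 128 CPM (median 73.2) and 39.2 to 47.2 CPM (median 41.4) at 20 weeks. It was called lower at both times (-0.68 ± 0.19, adjusted p = 0.00421; -0.89 ± 0.19, adjusted p = 0.000146), as was Nlrc5, an activator of class I genes and of Psmb9 and Tap1 (-0.83 ± 0.22, adjusted p = 0.00348; -0.72 ± 0.22, adjusted p = 0.00632). The light chain of class I molecules, B2m, was higher at 8 weeks (0.67 ± 0.17, adjusted p = 0.00191) and 20 weeks (0.50 ± 0.17, adjusted p = 0.0121). Tap1 and Nlrc5 were the 2 genes of the list called lower at either time.

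How the genes varied among mice of the same group was described by the correlation of their deviations from the group means over the 38 mice, which share library and scaling. The 31 core and cap genes had a median Pearson's r of 0.68 over 465 pairs, and Psmb8, Psmb9 and Psmb10 had 0.85 over 3 pairs (0.79 to 0.91). Between the inducible subunits and the core and cap genes the median was 0.18, and among every 7th gene tested it was 0.04. Psme1 and Psme2 had a median of 0.51 and 0.61 with the core and cap genes and 0.69 with each other. Psmb8 had 0.60 with Psme1 and 0.70 with Psme2, so that PA28 varied with both sets of genes. Psmd11 had a median of 0.39 and Psme4 of -0.07. The genes most like Psmb8 were H2-T23 (r = 0.93), Psmb10 (0.91), Bst2 (0.90), H2-K1 (0.88) and AW112010 (0.87). Those most like Psmb5 were Psma4 (0.92), Smdt1 (0.91), Psma7 (0.91), Psmb2 (0.91) and Psmb1 (0.90), so that 4 of these 5 were themselves proteasome genes.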

How the data were processed

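The values analysed were CPM in the table deposited by the authors, with 1 column per mouse in which 3 technical replicates (114 samples for 38 mice) had been merged. Per the labels and the methods, reads were aligned to mm10 with STAR (2.5 and 2.5.2b in the submitters' processing notes) and counted on the union of exons with featureCounts of Subread 1.5.1 and GENCODE vM2, and genes lacking an Entrez ID were dropped. The methods also name TMM normalization, which the design assumed, but every column sums to 1000000 and the values were therefore read as CPM without TMM factors. All values (100%) were whole multiples of 1 read within 0.1 reads, and edgeR and DESeq2 were run on these recovered reads. Whether the counting used strand is not given in the sources used here.

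Values were transformed to log2(CPM + 1). The genes with a mean above 2.0 were fitted with limma 3.58.1 in R 4.3.3, with all 6 groups in 1 model, a mean-variance trend and two-sided tests, and Benjamini-Hochberg adjustment over the genes tested with a threshold of 0.05. Within-mouse ratios were compared by exact permutation tests. The scripts were tested on simulated data. The alternatives were a pseudocount of 0.1, no filter, TMM factors, median-of-ratios size factors, edgeR 4.0.16 and DESeq2 1.42.0 on the recovered reads, separate fits for each time, the mean of the macrophage markers as a covariate, the mouse number as a block and leaving out each mouse. Centring by transcript length (longest transcript in GENCODE vM21) was added after seeing the data.

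Named in full were Psmb8, Psmb9, Psmb10, Psme1, Psme2, Psmb5, Psmb6 and Psmb7, and in each other class the gene with the largest diet difference among those called, by rule; Psmd11 and the genes named for separating the diets or for a low level were picked after their values were seen. The members and all lists were chosen with earlier results of these data known. Promoter sequences are from RefSeq (GRCm38.p6) and covered 40 of the 47 tested genes. Reads carry no molecular identifiers, so the precision given by depth covers counting error only. Labels name single mice as replicates within a group. Other cell fractions, qPCR and protein data were not analysed here.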

Additional observations from a re-analysis of the deposited data

Results flagged for a closer look

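In CD mice at 20 weeks, mouse 1 had 39.5 CPM of Psmb10 while the other 5 mice had 21.3 to 23.5 CPM, so that it lay far from the rest of its group. Its mean macrophage marker level, 7.62 on the log2(CPM + 1) scale, was also the highest of that group, in which the other mice had 4.50 to 6.02. The part of macrophage RNA in the value was not tested. Without this mouse the diet difference of Psmb10 at 20 weeks was 0.80. A total of 90 groups of mice and genes were examined in this way, and chance flags about 1 in 20 groups. This was the only group flagged, fewer than that rate would give.

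The diet difference changed between 20 and 34 weeks for Psmc4, by -0.48 (limma, adjusted p = 0.0327), and for Psmd8, by -0.38 (adjusted p = 0.0186), in a test of the difference between the times. Both genes were higher in HFD mice at 20 weeks, and the later difference was smaller. The number of proteasome genes called in this test fell from 2 to 1 without any of CD mice 3, 4, 5 and 6 or HFD mouse 3 at 20 weeks, or CD mice 2 and 3 or HFD mouse 3 at 34 weeks, and was 4 without CD mouse 5 or 7 at 34 weeks.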

How the results depend on the processing

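Counts of proteasome genes called depended on scaling, tool and covariate, and the cause was not tested. For HFD against CD at 8 weeks (13 called) they were 5 with TMM factors, 7 with median-of-ratios factors, 7 with edgeR, 8 with DESeq2, 20 when each time was fitted separately and 7 with the macrophage covariate. Of all 10343 genes, 4648 were called there in the main fit and 4551 with TMM factors. The numbers were 4571 with median-of-ratios factors, 4521 with edgeR and 4704 with DESeq2. At 20 weeks (10) the counts of proteasome genes were 16 with TMM factors, 18 in separate fits, 2 with the covariate and 17 after length centring. Of all genes 5894 were called in the main fit and 6074 with TMM factors. At 34 weeks (11) the counts of proteasome genes were 18 with TMM factors, 20 with median-of-ratios factors, 22 with edgeR, 23 with DESeq2, 1 in separate fits, 0 with the covariate and 19 after length centring. Of all genes 4468 were called in the main fit and 4469 with TMM factors. The numbers were 4553 with median-of-ratios factors, 4478 with edgeR and 4713 with DESeq2. Between 8 and 34 weeks the count on CD (42) was 25 after length centring, and on HFD (24) it was 14 with TMM factors, 15 with median-of-ratios factors, 14 with edgeR and 11 with the covariate. Of all genes 6696 were called on CD and 5432 on HFD in the main fit. On HFD the numbers were 5420 with TMM factors, 5454 with median-of-ratios factors and 5424 with edgeR. For the diet difference at 20 against 8 weeks (0) the count of proteasome genes was 1 after length centring, and at 34 against 20 weeks (2) it was 0 with TMM factors, 1 with median-of-ratios factors, 0 with edgeR and 4 with the covariate. Of all genes 1089 were called at 34 against 20 weeks in the main fit. The numbers were 1252 with TMM factors, 1143 with median-of-ratios factors and 1272 with edgeR. No such number is given in this paragraph for separate fits, the covariate or length centring. A pseudocount of 0.1 or no filter kept each of these counts of proteasome genes within 1.5 times its value.

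Length centring turned Psme1 to -0.22 at 8 weeks, where it was then called lower (adjusted p = 0.0292), and to -0.16 between 8 and 34 weeks on CD, and Psmb7 to -0.043 between 8 and 34 weeks on CD, both uncalled. With single mice left out, the counts ranged from 7 to 14 for the diets at 8 weeks (7 without HFD mouse 3 or 6), from 8 to 11 at 20 weeks, from 5 to 16 at 34 weeks, from 41 to 43 on CD and 17 to 29 on HFD between 8 and 34 weeks, from 0 to 2 (2 without CD mouse 1 at 20 weeks) and from 1 to 4 for the changes of the diet difference. The log2 ratio of Psmb9 to Psmb6 ranged from -0.34 to -0.23 at 8 weeks and from -0.80 to -0.59 at 20 weeks, and that of Psmb10 to Psmb7 from 0.31 to 0.55 at 8 weeks, where it passed the threshold without HFD mouse 1 (adjusted exact p = 0.039).

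Mice with the same number did not in general deviate together (correlations from -0.51 to 0.53 with mixed signs), and the numbers were not treated as pairs. This check cannot exclude a batch shared by some of the numbers, because each correlation compares only 1 mouse of each diet. With the number as a replicate block the diet count at 34 weeks was 17 and that for the diet difference at 34 against 20 weeks was 8, and no other count of calls moved by over 1.5 times. At these depths counting error is small for the genes with many reads, where the spread between mice, often largest in CD mice at 34 weeks, sets the limits. It is not small for Psmg3, Psme2b and Psmg4, which had at most 114, 110 and 136 reads in a mouse.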

Other observations

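A comparison chosen after the values were seen, and therefore without a test, set Psmb10 against Psmb9 in the same mouse. The log2 ratio had a mean of 0.56 in CD and 1.41 in HFD mice at 8 weeks, with a highest CD value of 0.82 and a lowest HFD value of 0.97. At 20 weeks the means were 0.34 and 1.29, with a highest CD value of 0.64 and a lowest HFD value of 0.79. The diets thus did not overlap at 8 or 20 weeks, whereas the means were 1.09 and 1.08 at 34 weeks. The log2 ratio of Tap1 to Psmb9, which share a start region, had means of 1.58 and 1.11 at 8 weeks, 1.96 and 1.35 at 20 weeks, and 0.85 and 0.78 at 34 weeks. Being ratios within a mouse, these values do not depend on the scaling of the libraries. The part of other cell types in them was not tested.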
